A study of Mus musculus with 12 samples.

Results

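The genes described here are those of the Rab, SNARE and granule exocytosis machinery. They were chosen by symbol: Rab followed by a number and at most 1 letter, any symbol that begins with Vamp, Stx, Sytl or Snap2, and Unc13d. The array carried 187 such probes for 94 genes, out of 45281 probes in all. Of these, 134 probes for 78 genes reached a detection p-value below 0.05 on 3 or more of the 12 arrays, as were 19274 probes of the whole array. The 78 genes were 49 of 59 Rab genes, 13 of 14 syntaxins, all 7 Vamp genes, 2 of 3 Snap genes, 2 of 4 Sytl genes, 4 of 6 syntaxin-binding (Stxbp) genes and Unc13d. The 16 genes below that limit were Rab15, Rab25, Rab30, Rab34, Rab39, Rab3b, Rab3c, Rab40b, Rab42, Rab9b, Snap25, Stxbp3, Stxbp6, Sytl4, Sytl5 and Stx19. On all 12 arrays 106 of the 134 probes were detected, and 65 of the 78 genes had such a probe.

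Rab proteins are small GTPases that mark membranes. In the GTP-bound state they recruit effectors that move and tether vesicles to a target membrane. SNARE proteins then drive fusion: a Vamp protein on the vesicle pairs with a syntaxin and a Snap protein on the target membrane, under the control of Sec1/Munc18 proteins (the Stxbp genes) and of priming factors such as Munc13-4 (Unc13d). In mast cells, neutrophils and cytotoxic lymphocytes this machinery releases granule contents, and Rab27 with its synaptotagmin-like effectors (Sytl genes) docks the granules at the plasma membrane.

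The study, per its title, asks how BCOR acts in blood stem cells and myeloid cells. BCOR is a corepressor subunit of a Polycomb complex. All samples were bone marrow mononuclear cells of 3-months-old Bcor Fl/Y mice, in which loxP sites flank exons 9 and 10 of Bcor. Cells were grown with SCF (50 ng/ml), IL-6 (25 ng/ml) and IL-3 (10 ng/ml), transduced with a retrovirus and selected with puromycin, so each sample is a selected culture and not a clone. The 4 groups of 3 arrays were CD34+ Cre (cells sorted for CD34 after transduction with a Cre retrovirus), CD34+ control (sorted after an empty retrovirus), BM Cre (unsorted, Cre) and BM control (unsorted, empty retrovirus). Each CD34+ group holds 2 repeats of marrow number 2 (F2-1 and F2-2) and 1 array of marrow number 4 (F4). The labels do not say whether BM repeats 1 to 3 are separate animals, so the p-values measure only the spread between these samples, which may be technical.

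Levels below are log2 normalised intensities, and changes are log2 differences ± SE from a single limma fit over all arrays. A change passed when its Benjamini-Hochberg adjusted p, over all 19274 probes, was under 0.05. Where a gene had several probes, the one with the highest mean level over all arrays stands for it unless stated otherwise. Levels of different probes are not comparable with each other.

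Bcor was lower in BM Cre at 8.60 ± 0.21 than in BM control at 9.75 ± 0.20 (SD, n = 3 each), and this change passed (−1.15 ± 0.24, adjusted p = 0.00643). In CD34+ cells Bcor stood at 8.93, 9.08 and 9.95 on Cre arrays F2-1, F2-2 and F4, against 9.80, 9.69 and 9.91 on the control arrays. The array labelled CD34+ Cre F4 was therefore not lower in Bcor than its control, and values without it are given below. Between 118 and 122 of the 134 member probes were detected on each CD34+ array and between 125 and 132 on each BM array. Cd34 itself stood at 10.07 ± 0.49 in CD34+ Cre, 10.26 ± 0.19 in CD34+ control, 9.05 ± 0.38 in BM Cre and 10.17 ± 0.16 in BM control, so that the control groups did not separate by this marker.

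Markers of other cells moved in the unsorted cultures. In BM Cre against BM control, 9 of 9 neutrophil, 4 of 4 eosinophil, 2 of 2 basophil, 3 of 3 monocyte and macrophage, 3 of 3 erythroid and 2 of 2 T and NK cell markers rose, and 2 of 3 megakaryocyte markers and 4 of 9 mast cell markers fell while 1 (Hdc) rose. The log2 summed level of the neutrophil list was 17.43 to 17.72 in BM Cre and 12.84 to 13.46 in BM control, that of the eosinophil list 16.70 to 16.86 in BM Cre and 10.68 to 13.69 in BM control, and that of the mast cell list 17.79 to 17.96 in BM Cre and 18.07 to 18.31 in BM control. In CD34+ cells no marker of these lists passed, and the neutrophil list summed to 14.97 to 15.14 in CD34+ Cre and 14.03 to 15.04 in CD34+ control. Ctsg averaged 15.06 ± 0.09 in CD34+ Cre and 14.61 ± 0.53 in CD34+ control. Among defining neutrophil genes, Mpo and Prtn3 were undetected on every CD34+ array, while Elane was undetected on every CD34+ control and BM control array. In bulk RNA a change in the number of cells of a type and a change of RNA per cell cannot be told apart, and the part of these cells in the member changes below was not tested.

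Promoter windows from RefSeq (GRCm38.p6, 300 bases around the annotated start) are shown for genes whose expression changed with Cre below. Stx1a rose in both populations, Rab27a and Rab31 rose in BM cells, and Sytl3 fell there. The table held 76 windows for 63 of the 78 genes, and Rab27a has 2 windows, of which the CG-richer is shown. Capitals mark CG dinucleotides in the first 3 lines, since CG-rich DNA is where the BCOR complex is known to be recruited, and in the Sytl3 line they mark matches to the motifs AGATAA and CATGTG on either strand.
Stx1a (chr5:135023232-135023531, plus strand): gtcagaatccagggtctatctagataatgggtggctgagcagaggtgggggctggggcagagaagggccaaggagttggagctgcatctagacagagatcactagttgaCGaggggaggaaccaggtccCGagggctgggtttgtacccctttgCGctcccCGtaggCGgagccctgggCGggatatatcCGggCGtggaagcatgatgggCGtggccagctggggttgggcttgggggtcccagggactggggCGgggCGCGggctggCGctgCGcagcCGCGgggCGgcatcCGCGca
Rab27a (chr9:73044560-73044859, plus strand): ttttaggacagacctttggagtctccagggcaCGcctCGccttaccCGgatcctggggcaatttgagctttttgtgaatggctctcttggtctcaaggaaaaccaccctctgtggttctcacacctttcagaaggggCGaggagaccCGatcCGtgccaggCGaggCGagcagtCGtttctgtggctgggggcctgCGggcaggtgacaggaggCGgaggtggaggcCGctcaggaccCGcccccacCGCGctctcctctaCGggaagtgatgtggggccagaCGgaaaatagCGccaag
Rab31 (chr17:65772703-65773002, minus strand): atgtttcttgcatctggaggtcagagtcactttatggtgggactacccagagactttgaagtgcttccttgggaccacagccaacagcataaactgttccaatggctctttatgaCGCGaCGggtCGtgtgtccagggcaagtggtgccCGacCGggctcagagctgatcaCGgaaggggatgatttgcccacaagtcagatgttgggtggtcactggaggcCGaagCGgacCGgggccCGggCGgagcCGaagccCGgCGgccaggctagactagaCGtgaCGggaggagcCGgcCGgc
Sytl3 (chr17:6658809-6659108, plus strand): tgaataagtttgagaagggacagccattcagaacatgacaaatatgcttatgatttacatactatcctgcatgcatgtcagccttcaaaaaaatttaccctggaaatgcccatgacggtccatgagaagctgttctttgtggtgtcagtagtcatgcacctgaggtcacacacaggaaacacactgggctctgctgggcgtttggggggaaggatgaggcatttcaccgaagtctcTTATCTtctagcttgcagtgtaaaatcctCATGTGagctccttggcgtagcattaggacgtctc
The member windows held a median of 21 CG dinucleotides, against 13 in 21263 windows of protein-coding genes and 7 in all 32851 windows. The Stx1a window held 19, the shown Rab27a window 18 and the other Rab27a window 6, the Rab31 window 19 and the Sytl3 window 5. The windows shown do not stand for the other genes that changed in BM cells. Of those that rose, Stx3 held 8, Rab21 26, Rab24 32, and the Vamp4 windows 23 and 34. Of those that fell, Rab19 held 9, Rab8b 24, Rab1a 27, Stxbp4 27, Rab33b 28, Snap29 33 and Stxbp5 47. The 3 motifs searched on both strands, none of which contains another, were CATGTG (an E-box bound by MITF), AGATAA (bound by GATA factors) and TTNNGCAA (bound by C/EBP factors). CATGTG was in 5.3% of member windows, against 11.5% of protein-coding and 14.2% of all windows. AGATAA was in 3.9%, against 9.7% and 11.2%, and TTNNGCAA in 10.5%, against 10.2% and 10.8%. Stx1a had an AGATAA match, Sytl3 had AGATAA and CATGTG, and the shown Rab27a and Rab31 windows had none of the 3. These matches describe letters in these windows only.

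With Cre in CD34+ cells, 1 of 134 member probes passed (0.746%), a share near the 0.617% of all probes. The median difference of the 78 genes was −0.11, against 0.01 over 10315 genes. At an unadjusted p under 0.05 there were 16 member probes (11.9%, against 11.8% of all probes).

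The probe that passed was that of Stx1a, a plasma membrane syntaxin best known from regulated secretion in neurons and endocrine cells. Its level was 7.60, 7.33 and 7.10 in CD34+ Cre (F2-1, F2-2, F4) and 5.51, 5.09 and 5.19 in CD34+ control. All Cre arrays lay above all controls, and the probe was detected on all 3 Cre arrays and on none of the controls. In both populations only Cre arrays detected it, so it met the detection rule only through groups where it was high. Its p-values do not allow for this, though the CD34+ call was kept with no filter. The fitted change was 2.08 ± 0.26 (adjusted p = 0.00267), and the fold was at least 3.57, a bound that sets the Cre mean against the higher of the control signal and the lowest detected signal on each array. Without the array labelled CD34+ Cre F4 it was 2.20 (adjusted p = 0.000889). Stx1a did not pass in a fit that took arrays of 1 marrow and arm as a random block (adjusted p = 0.103), with repeats averaged (adjusted p = 0.0604) or with the CD34+ arrays fitted alone (adjusted p = 0.0501). It was absent from the test that asks for detection on at least 6 arrays.

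Marrow numbers pair the CD34+ arrays, because the same marrow stands in both arms. Blocking by marrow number, 7 member probes passed in CD34+ cells, 3 up (Stx1a, Rab31 and Rab38) and 4 down (Rab5b, Vamp2, Rab14 and Sytl2), while 4.71% of all probes passed. Blocking by marrow and repeat together gave 3 (Stx1a, Rab31 and Rab14), while 1.89% of all probes passed. Without a block the brighter Rab14 probe gave −0.28 (adjusted p = 0.390) and the dimmer one −0.86 (adjusted p = 0.323). Rab31, which moves cargo between the trans-Golgi network and endosomes, was at 10.96, 10.95 and 10.26 in CD34+ Cre and 9.90, 9.91 and 9.82 in CD34+ control. Every Cre array lay above every control, but without a block the 0.85 ± 0.20 between them missed the threshold (adjusted p = 0.0860). It passed when blocked by marrow number (adjusted p = 0.0075). Rab38, a Rab of lysosome-related organelles, was at 13.39, 13.24 and 13.55 in CD34+ Cre and 12.54, 12.62 and 13.24 in CD34+ control, and the groups overlapped (0.59 ± 0.19, adjusted p = 0.235).

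Leaving out the array labelled CD34+ Cre F4 gave 11 member probes in CD34+ cells, 2 up and 9 down, while 9.42% of all probes passed. The Cre group then held only repeats of marrow number 2, which are not independent marrows. The control group still held marrow number 4, so differences between the marrows enter these values. The 9 lower probes were 2 of Sytl2 (−1.07 and −1.33) and 1 each of Rab5b, an early endosome Rab (−1.45), Rab14 (−1.23), Vamp2 (−1.10), Rab26 (−0.95), Vamp1 (−0.91), Rab27b (−0.91) and Stx6 (−0.73), and the higher ones were Stx1a and Rab31 (1.08). Within marrow number 2 alone the differences were −1.43 for Rab5b, −0.92 for Rab14, −0.83 for Rab27b and −0.77 for Stx6. The Rab14 values here are those of its dimmer probe. Leaving out CD34+ control F4 gave 2, Stx1a and Rab38, while 1.04% of all probes passed. The genes listed for these left-out arrays were named after their values were seen. Over the 78 genes, the marrow number 2 and number 4 differences had the same sign for 47 (60.3%), against 49.2% of all genes. Stx1a differed by 2.17 in number 2 and 1.91 in number 4, Rab31 by 1.05 in number 2 and 0.44 in number 4, and Rab26, a Rab of secretory granules detected on only 3 of the 12 arrays, by −1.15 in number 2 and 0.43 in number 4.

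**Figure D1:**
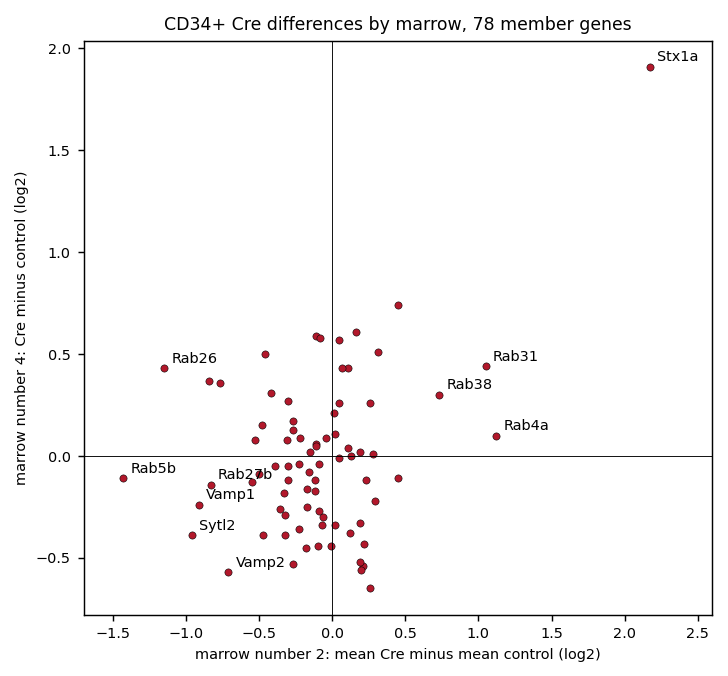
CD34+ Cre minus CD34+ control (log2 difference) for 78 member genes in marrow number 2 (horizontal axis, mean of 2 repeats per arm) and marrow number 4 (vertical axis, 1 array per arm). Stx1a lies at 2.17 and 1.91, apart from the other points, and Rab26 lies on opposite sides of 0.

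In unsorted BM cells 23 of 134 member probes passed (17.2%), 11 up and 12 down, while 14% of all probes did (7.09% up and 6.95% down). As genes these were 8 up (Rab7b, Rab31, Rab27a, Stx1a, Vamp4, Stx3, Rab21 and Rab24) and 10 down (Sytl2, Rab27b, Rab1a, Sytl3, Stxbp4, Snap29, Stxbp5, Rab33b, Rab8b and Rab19). The median difference was −0.15 over the 78 genes and −0.07 over all genes. By family, 5 of 49 Rab genes rose and 5 fell, 2 of 13 syntaxins and 1 of 7 Vamp genes rose, and 2 of 2 Sytl, 2 of 4 Stxbp and 1 of 2 Snap genes fell. Under median scaling the split was 12 up and 7 down, with the median of all probes at 0.06 in place of −0.07, and in the authors' deposited values it was 3 up and 7 down.

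The labels do not say that same-numbered BM arrays share an animal or culture, so pairing them is an assumption. Blocking by the BM repeat numbers raised the count to 41 (block by number) or 36 (block by number and repeat). All 23 were among them each time, while 26.3% and 22.1% of all probes passed. Both fits blocked the BM arrays by the same repeat numbers and differed only in the block of the CD34+ arrays. For BM calls, here and below, they are therefore not separate checks. Without BM control 1, BM Cre 1 or BM Cre 2 the count was 14, while 9.62%, 9.34% and 9.32% of all probes passed. In the authors' deposited values, tested the same way, the count was 10, while 6.54% of all probes passed. There Rab27b (adjusted p = 0.0905), Sytl3 (0.370), Stx3 (0.0624), Rab24 (0.304), Rab21 (0.103), Rab8b (0.142) and Stxbp4 (0.237) did not pass. Arrays whose removal ended the call of a gene are named below.

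Rab27a and Rab27b, close paralogs that dock lysosome-related granules, moved in opposite directions in BM cells. Rab27a was at 12, 11.99 and 12.22 in BM Cre and 11.14, 10.80 and 10.94 in BM control. All Cre arrays were higher than all controls, and Rab27a rose by 1.11 ± 0.15, or 2.16-fold (adjusted p = 0.000244). In CD34+ cells it was at 11.40, 11.31 and 11.69 with Cre and 11.84, 11.83 and 11.54 in controls, groups that overlapped (−0.27 ± 0.15, adjusted p = 0.499).

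Rab27b was at 8.34, 7.84 and 8 in BM Cre and 9.50, 9.04 and 8.90 in BM control. All Cre arrays were lower than all controls, and it fell by 1.09 ± 0.25 on the log2 scale, to 47.0% of the control level (adjusted p = 0.0125). This call did not hold without BM control 1 or BM Cre 2 (adjusted p = 0.0633 and 0.0557). A further Rab27b probe gave −1.06 without passing (adjusted p = 0.154). In CD34+ cells it was at 9.95, 9.89 and 10.85 with Cre and 10.76, 10.75 and 10.98 in controls. The groups overlapped through the F4 array, and the −0.60 ± 0.25 between them missed the threshold (adjusted p = 0.383).

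Sytl2, a synaptotagmin-like protein that binds Rab27 and tethers granules to the plasma membrane, showed the largest Cre difference of any member probe. Its level was 9.15, 8.67 and 9.52 in BM Cre and 12.25, 12.33 and 12.04 in BM control. The groups were over 2 log2 units apart, and Sytl2 fell by 3.09 ± 0.26 to 11.7% of the control level (adjusted p = 4.77e-06). A second Sytl2 probe fell by 1.25 (adjusted p = 0.0316). In CD34+ cells Sytl2 was at 11.52, 11.57 and 12.46 with Cre and 12.54, 12.48 and 12.85 in controls, all Cre arrays below all controls, and the −0.77 ± 0.26 between them missed the threshold (adjusted p = 0.259). It passed when the array labelled F4 was left out (adjusted p = 0.0100) or when blocked by marrow number (adjusted p = 0.0457).

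Sytl3, another Rab27 effector, was at 9.72, 9.94 and 9.61 in BM Cre and 10.46, 10.60 and 10.66 in BM control. The Cre arrays were all lower, and it fell by 0.82 ± 0.20 (adjusted p = 0.0157). The call was lost under median scaling (adjusted p = 0.0550) and without BM control 2, BM control 3 or BM Cre 1 (adjusted p = 0.0540, 0.0634 and 0.0559). Its 3 other probes gave −0.63, −0.46 and −0.33, none of which passed. In CD34+ cells Sytl3 did not differ beyond its spread (0.05 ± 0.20, adjusted p = 0.950).

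**Figure D2:**
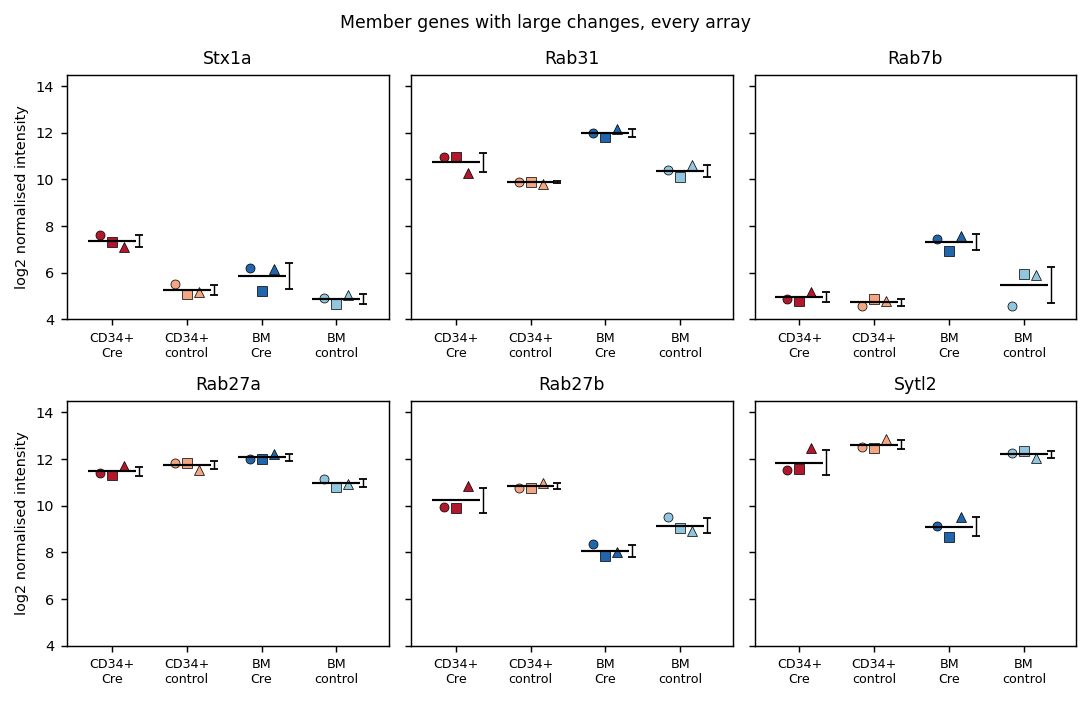
Log2 normalised intensity of 6 member genes on each array (points; circles, squares and triangles are F2-1, F2-2 and F4 in CD34+ groups and repeats 1, 2 and 3 in BM groups), with the group mean (line) and SD (bar, n = 3). Sytl2 reached 9.52 at most in BM Cre and 12.04 at least in BM control, Rab27a and Rab27b moved apart in BM cells, and Stx1a was above its controls on all CD34+ Cre arrays.

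Among the SNAREs that rose in BM cells, Stx1a was at 6.19, 5.21 and 6.15 in BM Cre and 4.90, 4.66 and 5.04 in BM control. All Cre arrays were higher, but the probe was detected on 2 of the 3 Cre arrays and on no control, so its level there is close to background. The fitted change was 0.98 ± 0.26 (adjusted p = 0.0249) and the fold was at least 1.44. Leaving out BM control 1, BM control 2, BM Cre 1 or BM Cre 3 ended the call (adjusted p = 0.0685, 0.0997, 0.114 and 0.0701 in that order), as did the random block (adjusted p = 0.0710), and it was lost in the authors' deposited values tested the same way (adjusted p = 0.152).

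Stx3, a plasma membrane syntaxin of regulated secretion, was at 11.78, 11.79 and 11.94 in BM Cre and 11.29, 10.88 and 11.24 in BM control. The groups did not overlap, and Stx3 rose by 0.70 ± 0.13 (adjusted p = 0.00272). A second probe rose by 0.59 (adjusted p = 0.0181) and the remaining one gave 0.52 (adjusted p = 0.134). Vamp4, of the trans-Golgi network and endosomes, was at 11.03, 10.72 and 11.47 in BM Cre and 10.04, 9.95 and 10.52 in BM control, and it rose by 0.90 ± 0.21 (adjusted p = 0.0125). Its 3 Cre arrays were all higher, but the call was lost without BM control 1 or BM control 2 (adjusted p = 0.0555 and 0.0602), and a second Vamp4 probe gave −0.28 (adjusted p = 0.762).

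Rab31 was at 11.99, 11.83 and 12.16 in BM Cre and 10.40, 10.10 and 10.61 in BM control. The arrays were clearly separate, and Rab31 rose 3.08-fold (1.62 ± 0.20, adjusted p = 0.000118), a call kept in each of the 25 alternatives. Rab7b, a Rab of the late endosome and Golgi, was at 7.45, 6.95 and 7.58 in BM Cre and 4.58, 5.96 and 5.89 in BM control. It was detected on 3 of 3 Cre arrays and 2 of 3 controls, and on no CD34+ array, so the size of its rise of 1.85 ± 0.32 (adjusted p = 0.00195) depends on the offset. A second Rab7b probe rose by the same 1.85 (adjusted p = 0.000516). Both probes stand at the floor of 24 on every array of the authors' deposited values, where no change can be seen.

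Rab24, a Rab linked to autophagy, was at 11.24, 11.36 and 11.11 in BM Cre and 10.69, 10.81 and 10.46 in BM control, and it rose by 0.59 ± 0.13 (adjusted p = 0.0108). All Cre arrays were higher, and the call was lost without BM control 3 (adjusted p = 0.0578). Rab21, which acts in integrin endocytosis, rose by 0.64 ± 0.17 (adjusted p = 0.0248), a call lost without BM control 2 or 3 or BM Cre 1 or 2 (adjusted p = 0.0754 to 0.0949).

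Rab1a and Snap29, which act on internal membranes, fell. Rab1a, which acts between the endoplasmic reticulum and the Golgi, was at 9.09, 9.03 and 9.32 in BM Cre and 10.28, 9.91 and 9.89 in BM control. No Cre array reached a control, and Rab1a fell by 0.88 ± 0.15 to 54.4% (adjusted p = 0.00201), a call kept in all 25 alternatives. A second probe gave −0.60 without passing (adjusted p = 0.130). Snap29, a Snap protein of internal membranes and autophagosomes, was at 11.36, 10.90 and 11.51 in BM Cre and 12.03, 12.02 and 12.02 in BM control. The groups did not overlap, and it fell by 0.77 ± 0.15 (adjusted p = 0.00514).

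Among syntaxin partners, 2 of 4 Stxbp genes fell. Stxbp5 (tomosyn), which holds syntaxins away from Vamp proteins, was at 12.22, 12.07 and 11.83 in BM Cre and 12.78, 12.77 and 12.82 in BM control. Cre arrays were all lower, and it fell by 0.75 ± 0.13 (adjusted p = 0.00149), with a second probe at −1.18 (adjusted p = 0.00765). Stxbp4, which binds Stx4, was at 6.10, 5.56 and 6.16 in BM Cre and 6.83, 6.70 and 6.69 in BM control. It fell by 0.80 ± 0.24 (adjusted p = 0.0427), but it passed in 11 of 25 alternatives and missed the threshold without any of BM control 1, 2 or 3 (adjusted p = 0.129, 0.101 and 0.102), BM Cre 1 or 2 (adjusted p = 0.0791 and 0.183), or CD34+ control F2-1, CD34+ Cre F2-1 or CD34+ Cre F2-2 (adjusted p = 0.0593, 0.0574 and 0.0583). 

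The other genes that fell were the Golgi Rab Rab33b (−0.70 ± 0.17, adjusted p = 0.0172), Rab8b, of transport to the plasma membrane (−0.51 ± 0.12, adjusted p = 0.0152), and Rab19 (−0.61 ± 0.19), whose adjusted p was just under the threshold and whose groups overlapped. Under median scaling none of these 3 passed (adjusted p = 0.0784 for Rab33b, 0.177 for Rab8b and 0.126 for Rab19). Rab33b also lost its call without BM control 1 or 3 or BM Cre 1 or 2 (adjusted p = 0.0511 to 0.0759), and Rab8b without BM control 1 or BM Cre 1 or 2 (adjusted p = 0.0587 to 0.0656). Rab19 passed in 7 of 25 alternatives, and leaving out BM control 1 or 3, BM Cre 1 or 2 or any F2 array of the CD34+ groups ended its call (adjusted p = 0.0624 to 0.197).

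Of the granule exocytosis genes, Stx3 is described above, and the following missed the threshold in both Cre comparisons when no block was used and no array was left out. Unc13d, which primes granules for fusion, was at 9.72, 9.74 and 10.10 in CD34+ Cre and 10.02, 9.87 and 10.01 in CD34+ control, and at 9.67, 9.68 and 9.90 in BM Cre and 9.72, 9.48 and 9.84 in BM control. Its arrays overlapped in both populations (−0.11 ± 0.15 and 0.07 ± 0.15). Stxbp2 (Munc18-2), the partner of Stx11, was at 13.09, 12.86 and 13.18 in CD34+ Cre and 13.17, 13.13 and 13.34 in CD34+ control, and at 12.89, 12.80 and 12.98 in BM Cre and 13.10, 12.98 and 13.03 in BM control. It gave −0.17 ± 0.11 in CD34+ cells and −0.15 ± 0.11 in BM cells (adjusted p = 0.574 and 0.437).

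Stx11, a syntaxin of cytotoxic granule release, was at 9.75, 9.93 and 9.96 in CD34+ Cre and 10.40, 10.36 and 10.10 in CD34+ control, and at 11.10, 10.97 and 11.89 in BM Cre and 10.70, 10.57 and 10.96 in BM control. The Cre arrays were all lower in CD34+ cells and all higher in BM cells, without passing (−0.41 ± 0.22, adjusted p = 0.487, and 0.58 ± 0.22, adjusted p = 0.0991). The BM value passed under both blocks (adjusted p = 0.0111 by number and 0.0231 by number and repeat). Stx4a, a plasma membrane syntaxin of mast cell degranulation, was at 10.59, 10.73 and 11 in CD34+ Cre and 11.26, 11 and 11.38 in CD34+ control, and at 10.24, 9.97 and 10.45 in BM Cre and 10.63, 10.86 and 10.65 in BM control. It did not pass (−0.44 ± 0.17, adjusted p = 0.310, and −0.50 ± 0.17, adjusted p = 0.0692), and passed in BM cells with either block (adjusted p = 0.0251 and 0.0461).

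Snap23, the widespread Snap protein of the plasma membrane, was at 12.34, 12.31 and 12.66 in CD34+ Cre and 12.49, 12.70 and 13.19 in CD34+ control, and at 12.51, 12.07 and 12.71 in BM Cre and 12.92, 12.89 and 13.11 in BM control. In BM cells its arrays were lower with Cre, by −0.54 ± 0.20, which missed the threshold (adjusted p = 0.0919) and passed with either block (adjusted p = 0.00508 and 0.0114). Vamp8, the main granule Vamp of mast cells, was at 12.93, 12.86 and 12.76 in CD34+ Cre and 13.02, 13.00 and 12.88 in CD34+ control, and at 12.43, 12.22 and 12.64 in BM Cre and 12.67, 12.74 and 12.72 in BM control. Its differences were small (−0.12 ± 0.12 and −0.28 ± 0.12, adjusted p = 0.746 and 0.135), and the BM one passed without BM Cre 3 (adjusted p = 0.0312).

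Vamp2, a Vamp of synaptic and secretory vesicles, had the widest spread of the Vamp genes. It was at 8.84, 8.83 and 10.15 in CD34+ Cre and 9.48, 9.61 and 10.72 in CD34+ control, so marrow number 4 was higher in both arms, and at 8.99, 8.93 and 9.28 in BM Cre and 9.70, 10.06 and 9.88 in BM control. It gave −0.66 ± 0.37 and −0.82 ± 0.37 without passing (adjusted p = 0.509 and 0.178) and both passed when blocked by number (adjusted p = 0.0226 and 0.00109). Vamp3 of recycling endosomes ranged from 12.03 to 12.21 in CD34+ Cre, from 12.07 to 12.37 in CD34+ control, from 11.77 to 11.92 in BM Cre and from 11.87 to 11.96 in BM control, and Vamp7 of late endosomes and lysosomes from 9.88 to 9.98 in CD34+ Cre, 9.60 to 9.72 in CD34+ control, 10.49 to 10.59 in BM Cre and 10.49 to 10.65 in BM control. Their differences did not exceed 0.26 in size.

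Rab3d, found on mast cell and secretory granules, was at 11.34, 11.34 and 11.20 in CD34+ Cre and 11.14, 11.16 and 11.18 in CD34+ control, and at 11.45, 11.26 and 11.69 in BM Cre and 11.31, 11.01 and 11.10 in BM control (0.14 ± 0.13 and 0.33 ± 0.13). Rab37, a mast cell granule Rab, was at 7.78, 7.67 and 8.36 in CD34+ Cre and 7.87, 8.21 and 8.28 in CD34+ control, and at 7.90, 7.67 and 8.34 in BM Cre and 8.57, 8.39 and 8.74 in BM control (−0.18 ± 0.24 and −0.60 ± 0.24). Rab32, which like Rab38 supplies lysosome-related organelles, was at 12.16, 12.20 and 11.99 in CD34+ Cre and 12.45, 12.54 and 12.28 in CD34+ control, and at 12.48, 12.19 and 12.63 in BM Cre and 12.71, 12.47 and 12.69 in BM control (−0.31 ± 0.14 and −0.19 ± 0.14). In BM cells Rab3d passed when blocked by number (adjusted p = 0.0472) and Rab37 with either block (adjusted p = 0.0194 and 0.0356) or without BM Cre 3 (adjusted p = 0.0456).

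Rab38 in BM cells was at 13.25, 12.89 and 13.36 with Cre and 13.49, 13.16 and 13.26 in controls, and did not pass (−0.14 ± 0.19). Rab3a, the synaptic vesicle Rab, was at 7.50, 7.49 and 7.41 in CD34+ Cre and 7.70, 7.50 and 7.35 in CD34+ control, and at 7.29, 7.60 and 7.47 in BM Cre and 7.81, 7.70 and 7.85 in BM control. Its groups overlapped in CD34+ cells and did not in BM cells, without passing in either (−0.05 ± 0.17 and −0.33 ± 0.17).

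**Figure D3:**
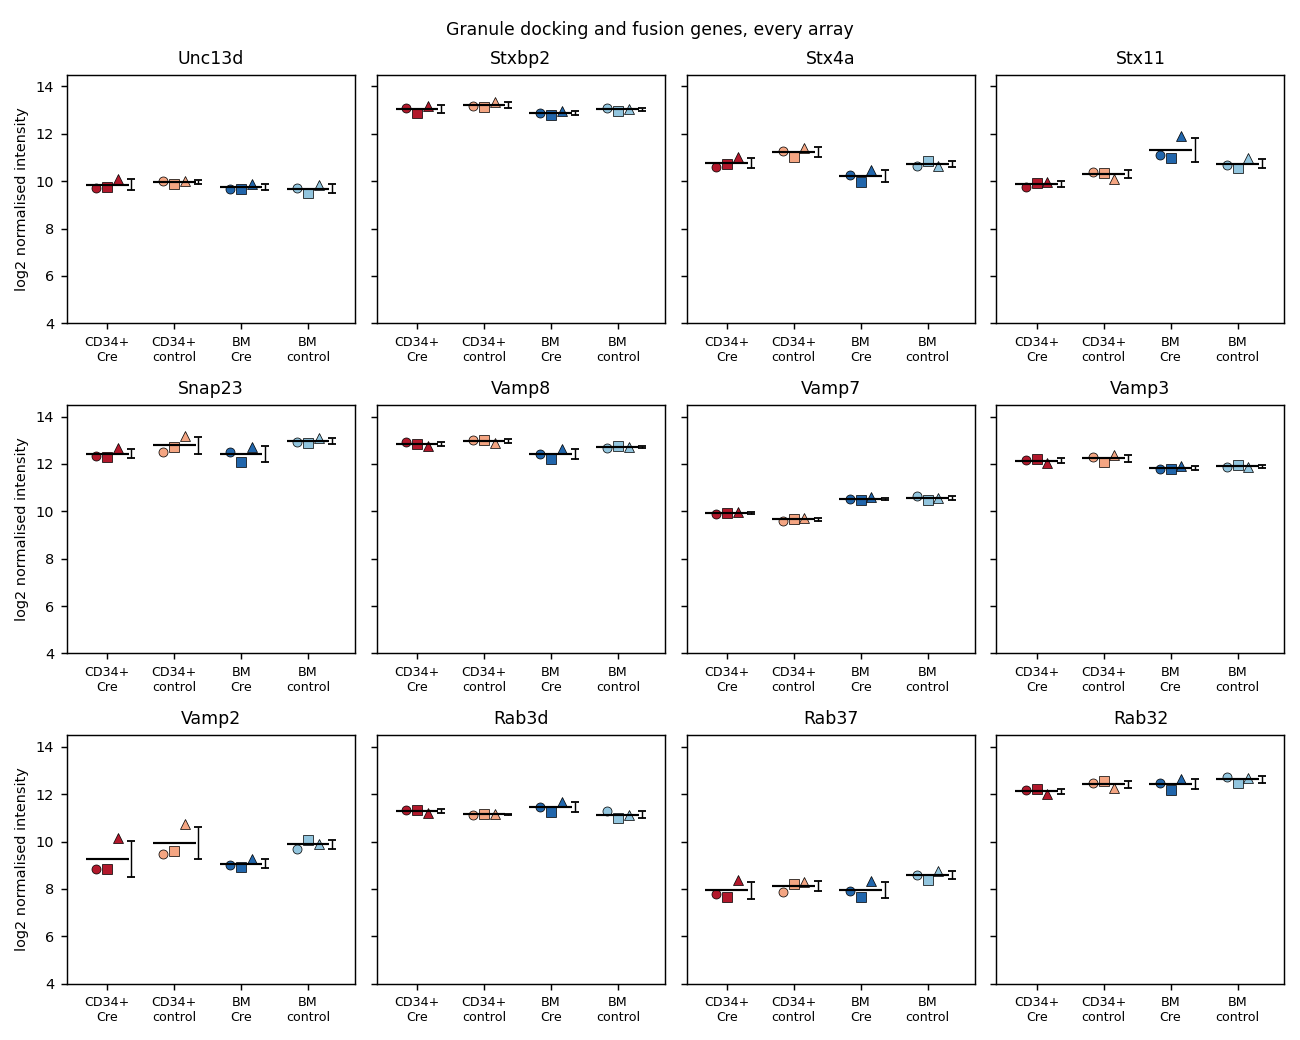
Log2 normalised intensity of 12 docking and fusion genes on each array (points; symbols by marrow or repeat as circles for F2-1 or 1, squares for F2-2 or 2, triangles for F4 or 3), with group means (lines) and SD (bars, n = 3). None of these 12 genes passed in either Cre comparison with all arrays and no block, and Vamp2 shows marrow number 4 above number 2 in both CD34+ groups.

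The difference between the Cre effects (CD34+ minus BM) was tested directly and passed for 5 member probes of 134 (3.73%), against 4.75% of all probes. They were Sytl2 (2.32 ± 0.36, adjusted p = 0.00206), Rab27a (−1.38 ± 0.21, adjusted p = 0.00156), Rab1a (1.0 ± 0.22, adjusted p = 0.0185), Rab24 (−0.91 ± 0.19, adjusted p = 0.0136) and 1 of the 2 Rab7b probes (−1.90, adjusted p = 0.0106), which was undetected on every CD34+ array, so that no change could be seen there. No other probe of these genes passed. The second Rab7b probe gave −1.63 (adjusted p = 0.0671) and the second Rab1a probe 0.29 (adjusted p = 0.789). The second Sytl2 probe fell less in BM cells (−1.25) than the first. The other Rab24 probes gave −0.70 and −0.77 (adjusted p = 0.100 and 0.141). For Sytl2 and Rab1a the Cre difference was lower in BM cells than in CD34+ cells, and for Rab27a and Rab24 it was higher in BM cells. Rab24 was at 10.54, 10.59 and 10.78 in CD34+ Cre and 10.96, 10.89 and 11.04 in CD34+ control, and Rab1a at 10.41, 10.66 and 10.70 in CD34+ Cre and 10.57, 10.41 and 10.43 in CD34+ control, neither of which passed within CD34+ cells. Rab1a lost its call without CD34+ control F2-2, CD34+ Cre F2-2, BM control 1 or BM Cre 1 (adjusted p = 0.0563, 0.0572, 0.0538 and 0.0530 in that order). Rab1a and Rab24 also lost their calls with the random block (adjusted p = 0.105 for Rab1a and 0.0527 for Rab24) and with repeats averaged (adjusted p = 0.0785 for Rab1a and 0.0909 for Rab24). In the authors' deposited values Sytl2 (adjusted p = 0.0522), Rab1a (0.0660) and Rab24 (0.196) missed the threshold. For Stx1a (1.10 ± 0.37, adjusted p = 0.139), Rab27b (0.49 ± 0.36, adjusted p = 0.605) and Rab31 (−0.78 ± 0.28, adjusted p = 0.169) a difference between populations did not pass without a block. Under the blocks by number and by number and repeat, those of Stx1a (adjusted p = 0.0351 and 0.0396) and Rab31 (adjusted p = 0.0225 and 0.0486) did. Blocking by number gave 20 probes, blocking by number and repeat 13, and leaving out CD34+ control F4 10, each time with all 5 among them, while 10.1%, 7.77% and 5.26% of all probes passed.

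**Figure D4:**
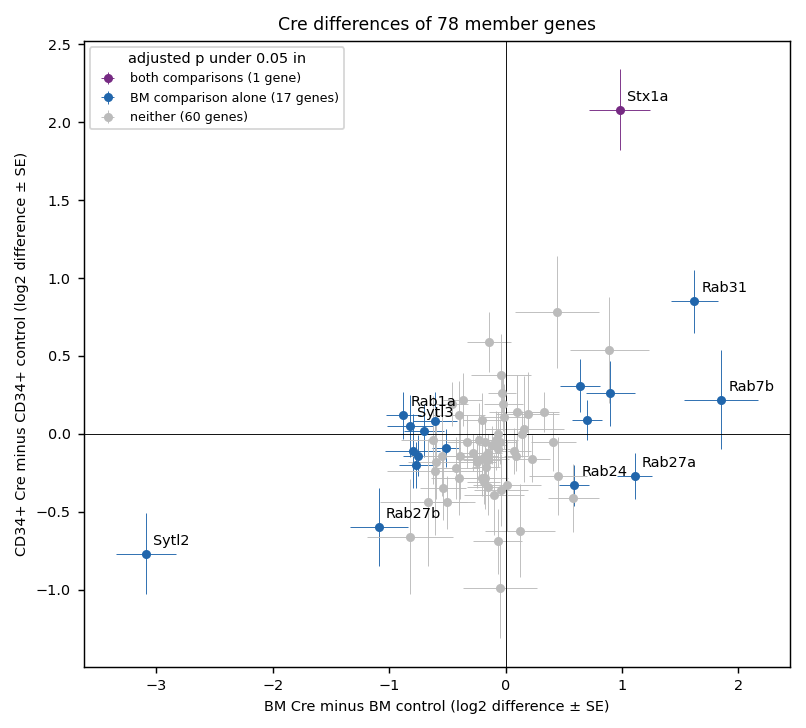
Cre minus control (log2 difference ± SE) for 78 member genes in BM cells (horizontal axis) and CD34+ cells (vertical axis). Stx1a passed in both, 17 genes passed in BM cells alone (blue), and Sytl2 and Rab27a lie away from 0 mainly along the BM axis.

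In control cells 63 of 134 member probes passed between CD34+ and BM arrays (47.0%, 35 higher and 28 lower), against 39.9% of all probes. In Cre cells 72 did (53.7%, 41 higher and 31 lower), against 49.1% of all probes. Under median scaling the split in Cre cells was 22 higher and 36 lower, and the median of all probes was −0.05 in place of 0.12. In the authors' deposited values it was 16 higher and 28 lower in Cre cells and 12 higher and 23 lower in control cells. The marrow and repeat numbers do not link the populations, so no paired fit applies to them, and the sorting, culture and array processing of the populations cannot be told apart.

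In CD34+ control against BM control, the largest rises among genes detected on both sides were those of Stxbp5l, a tomosyn homolog (1.71 ± 0.17), Rab27b (1.68 ± 0.25), Rab33a (1.49 ± 0.34), Rab29, a Rab of the Golgi and lysosome (0.99 ± 0.26), and Rab22a, of early endosomes (0.93 ± 0.18). Rab39b also passed, and as it was undetected on every BM array its fold was at least 1.86. Rab29 lost its call with repeats averaged (adjusted p = 0.0616) and in the authors' deposited values (adjusted p = 0.108). The largest falls among genes detected on both sides were those of Rab10 (−2.46 ± 0.28), Rab9, which acts from late endosomes to the Golgi (−2.43 ± 0.25), Rab43 (−1.58 ± 0.25), Snap29 (−1.22 ± 0.15) and Rab11a, of recycling endosomes (−1.20 ± 0.22). The Golgi syntaxin Stx16 was undetected on every CD34+ array and was at least 1.56-fold lower there. In the fit as described, all of these changes had adjusted p of 0.00937 or less. Rab10 was at 7.80, 7.36 and 8.71 in CD34+ control and 10.36, 10.58 and 10.32 in BM control, and Rab9 at 7.43, 7.47 and 6.97 in CD34+ control and 9.96, 9.50 and 9.71 in BM control, and neither pair of groups overlapped.

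In CD34+ Cre against BM Cre, Sytl2 was highest in the order of rises (2.74 ± 0.26, adjusted p = 5.14e-06), followed by Rab27b (2.17 ± 0.25), Stxbp5l (1.91 ± 0.17), Stx1a (1.49 ± 0.26), Rab1a (1.44 ± 0.15) and Rab29 (1.40 ± 0.26). The largest falls among genes detected on both sides were those of Rab9 (−3.15 ± 0.25), Rab10 (−1.88 ± 0.28), Rab43 (−1.56 ± 0.25) and Stx11 (−1.44 ± 0.22). Rab7b and Stx16, undetected on every CD34+ array, were at least 3.52-fold and at least 1.36-fold lower there. Rab27a was higher in CD34+ cells among controls (0.78 ± 0.15, adjusted p = 0.00122) and lower in CD34+ cells among Cre cells (−0.60 ± 0.15, adjusted p = 0.00465).

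Several of these population differences depend on which probe of a gene is read. Of 40 member genes with more than 1 probe, 4 (Rab27b, Rab9, Rab7 and Rab5a) had probes that passed in opposite directions in control cells, and 7 (Rab27b, Rab7, Rab28, Rab6a, Rab43, Stxbp4 and Vamp8) in Cre cells. In either Cre comparison 0 of 40 did. The share of such genes over the whole array was not counted, so these counts are not read as a trait of the member genes. The brighter Rab27b probe was higher in CD34+ control than in BM control by 1.68 ± 0.25, and the other was lower by 3.77 ± 0.45 on the log2 scale (−3.77, adjusted p = 5.25e-05). The second Rab9 probe was higher (0.59 ± 0.21, adjusted p = 0.0381) where the first was lower. For Rab7, the late endosome Rab, the brightest probe gave −0.78 ± 0.14 and the other 2 gave 1.04 and 1.01. The direction of these genes between populations is therefore not settled by the array.

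**Figure D5:**
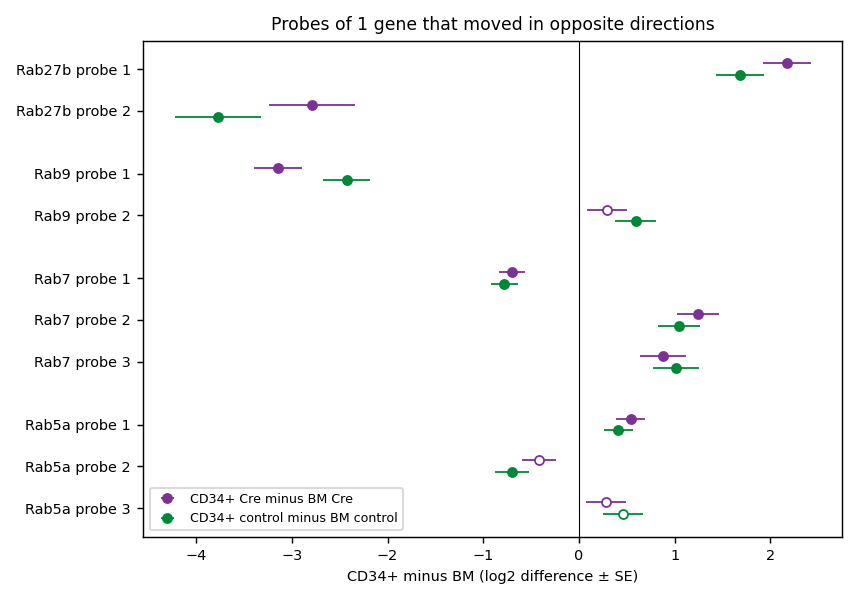
CD34+ minus BM (log2 difference ± SE) for each probe of Rab27b, Rab9, Rab7 and Rab5a, in Cre cells (purple, upper) and control cells (green, lower), with filled points for adjusted p under 0.05. Probes of the same gene lie on both sides of 0, from −3.77 to 2.17 for Rab27b.

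Other genes of the pathway were read from 7 lists, and over all genes 15.9% passed in BM cells (859 up and 779 down of 10315), with a median difference of −0.07. Of 7 exocyst genes, which tether vesicles to the plasma membrane, 2 fell in BM cells, Exoc6b (−1.52 ± 0.20, adjusted p = 0.000206) and Exoc3 (−0.64 ± 0.14, adjusted p = 0.00696), and the list's median was −0.24. Of 18 Rab effectors 2 rose and 4 fell (median −0.36), among them Rilpl2 (1.22 ± 0.20, adjusted p = 0.00131), Rab11fip3 (−1.0 ± 0.17, adjusted p = 0.00161) and Rabep2 (−0.82 ± 0.14, adjusted p = 0.0019). Of 34 Rab activators, inactivators and prenylation genes 4 rose and 2 fell (median −0.13). The exchange factor Dennd2d was detected on 3 of 3 BM Cre arrays and on no other array, and was at least 3.59-fold higher in BM Cre than in BM control (adjusted p = 1.44e-05). It met the detection rule only through BM Cre, and this p-value does not allow for that. Rin2, an exchange factor for Rab5 (0.78 ± 0.19, adjusted p = 0.0157), and Tbc1d1, a Rab GTPase-activating protein (−0.62 ± 0.16, adjusted p = 0.0232), followed.

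Of 12 other SNAREs of the Golgi, endoplasmic reticulum and endosome 2 fell in BM cells (median −0.23), Gosr2 (−0.60 ± 0.11, adjusted p = 0.00327) and Vti1b (−0.55 ± 0.14, adjusted p = 0.0198). Of 23 genes of lysosome-related organelle biogenesis 1 rose, Bloc1s2 (0.62 ± 0.13, adjusted p = 0.00822), and 3 fell (median −0.31), among them Ap3s2 (−0.62 ± 0.16, adjusted p = 0.0199) and Vps39 (−0.70 ± 0.19, adjusted p = 0.0315). Of 6 calcium sensors and priming factors detected of 29, Syt9, a synaptotagmin, fell in BM cells (−1.01 ± 0.28, adjusted p = 0.0310), with detection on 1 of 3 BM Cre arrays, and the median was −0.50. None of 4 genes for SNARE disassembly and complexins passed in BM cells (median −0.17). Over all genes 0.717% passed in CD34+ cells (74 of 10315). There, 1 gene of the 7 lists passed, Cadps2, which primes dense-core vesicles. It was at 4.88, 4.78 and 6.17 in CD34+ Cre and 7.39, 7.50 and 6.47 in CD34+ control, with all Cre arrays lower (−1.85 ± 0.35, adjusted p = 0.0402), and it was detected on 1 of 3 Cre arrays, the one labelled F4 being nearest to the controls. The difference of Cre effects passed for Exoc6b (1.33 ± 0.28, adjusted p = 0.0144), Rilpl2 (−1.11 ± 0.28, adjusted p = 0.0443) and Bloc1s2 (−0.73 ± 0.19, adjusted p = 0.0499). It also passed, with a negative sign, for 1 of the 34 Rab activators, inactivators and prenylation genes. Of all 10315 genes 5.56% passed.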

How the data were processed

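RNA of 12 mouse marrow samples, 3 in each of 4 groups, was hybridised to 1-colour Illumina BeadChips (45281 probes). Per the file headers, the scanner values deposited are a probe intensity with its detection p-value. The intensity is linear and was not scaled between arrays. A second deposited table by the authors holds a linear intensity with low values set to 24. The submitters' processing notes name RMA, and the method behind that table is otherwise not given in the sources used here.

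The neqc function of limma 3.58.1 (R 4.3.3) corrected background from the detection p-values, added an offset of 16, and gave quantile-normalised log2 values. The fit used probes with a detection p below 0.05 on 3 or more of 12 arrays. Probes such as those of Stx1a, Rab7b, Rab39b, Stx16 and Dennd2d entered only through groups where they were high. Their p-values do not allow for this. A limma model held 4 group means, with an intensity trend, and Benjamini-Hochberg adjustment ran over 19274 probes in each of 5 comparisons. The method was tested on simulated data. The members, gene lists and marker lists were chosen with earlier results of these data known. The text names core granule genes, up to 6 called genes each way per comparison and up to 3 called genes per list. Rab8b, Rab19, Rab21, Rab33b and Stxbp5 were named after their values were seen. No slide or scan batch is given in the sources used here, so none was tested. Gene symbols come from the platform annotation (1 symbol for 34885 probes, several for 18, none here for 10378), and names were updated with RefSeq (GRCm38.p6). The number of arrays limits the precision.

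Same-numbered CD34+ arrays come from the same marrow. Same-numbered BM arrays carry only repeat numbers, so their pairing is an assumption. Their deviations from the group means correlated at r = 0.121, 0.404 and 0.353, and arrays of unlike number were not compared. Both populations were treated as paired in the alternative fits with a replicate block.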

Additional observations from a re-analysis of the deposited data

Results flagged for a closer look

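A direct test of the difference between the Cre effects (limma, CD34+ minus BM) passed for 5 member probes. For 1 of them, of Rab7b, the CD34+ effect could not be seen. For Sytl2 the difference was 2.32 (adjusted p = 0.00206), from −0.77 in CD34+ cells and −3.09 in BM cells. A second Sytl2 probe fell less in BM cells (−1.25), so the size of this difference rests on 1 probe. For Rab27a it was −1.38 (adjusted p = 0.00156), from −0.27 and 1.11. For Rab24 it was −0.91 (adjusted p = 0.0136), from −0.33 and 0.59, and for Rab1a it was 1.0 (adjusted p = 0.0185), from 0.12 and −0.88. The calls of Rab24 and Rab1a were lost with the random block (adjusted p = 0.0527 and 0.105) and with repeats averaged (adjusted p = 0.0909 and 0.0785). For the Rab7b probe ILMN_2769490 the difference was −1.90 (adjusted p = 0.0106), and this probe was undetected on every CD34+ array, so that no change could be seen there. It met the detection rule only through BM arrays, and its p-value does not allow for this. The second Rab7b probe gave −1.63 (adjusted p = 0.0671). No other probe of these genes passed. The second Rab1a probe gave 0.29 (adjusted p = 0.789), and the other Rab24 probes gave −0.70 and −0.77 (adjusted p = 0.100 and 0.141). Markers of neutrophils, eosinophils and basophils rose in BM Cre against BM control and none passed in CD34+ cells, and their part in these differences was not tested.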

How the results depend on the processing

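The count of member probes that passed changed with the model, the arrays used and the table, as did the share of all probes. In CD34+ Cre against CD34+ control (1 probe) the count was 7 under the replicate block by marrow number, 3 under that by number and repeat, 0 when the random block was marrow within arm, with repeats averaged, with only the groups compared, or with detection on at least 6 arrays, which leaves Stx1a out by construction, and 1 to 11 with single arrays left out. The share of all probes was 0.617% at first and 4.71% and 1.89% with the replicate blocks. It was 0.0726% to 0.558% where the count was 0, and 0.202% to 9.42% with single arrays left out. In BM Cre against BM control (23) the count was 41 and 36 with those replicate blocks, 10 in the authors' values and 14 to 31 with single arrays left out. The share of all probes was 14% at first, then 26.3%, 22.1% and 6.54%, and 9.3% to 19.6% with single arrays left out. For the difference of Cre effects (5) the count was 20 and 13 with the blocks, 3 with the random block, 2 with repeats averaged, 1 in the authors' values and 4 to 10 with single arrays left out. The share of all probes was 4.75% at first, then 10.1%, 7.77%, 2.59%, 2.57% and 1.54%, and 3.51% to 7.1% with single arrays left out. In CD34+ control against BM control (63) the count was 35 in the authors' values, 37 with the random block, 34 with 1 probe per gene (fewer probes by construction) and 42 to 70 with single arrays left out. The share of all probes was 39.9% at first, then 24.1%, 29.1% and 38%, and 30.8% to 46% with single arrays left out. In CD34+ Cre against BM Cre (72) the count was 44 in the authors' values, 42 with 1 probe per gene and 62 to 77 with single arrays left out. The share of all probes was 49.1% at first, then 29.2% and 48.9%, and 41.2% to 51.9% with single arrays left out. Of single-gene values, 79 gained and 174 lost the threshold under an alternative, and 4777 did neither. No value that passed in the main or the alternative fit changed sign between them. Values that passed in neither could change sign, as for Vamp2 in the difference of Cre effects (−0.29 to 0.55 over the alternatives). The cause of these shifts was not tested. The 2 replicate blocks ended no call of the 23, the 5 or the 1, while the random block kept 17, 3 and 0 of them. The slide block was not run, and no alternatives were computed for single genes of the 7 other lists. With CD34+ F4 left out, an arm holds only repeats of marrow 2, while the other arm keeps marrow 4. Probes near background, such as those of Stx1a and Rab7b, have changes whose size depends on the offset.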
